A study of Mus musculus with 18 samples.

Results

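The mitosis genes described here are 34 listed genes whose products enter, drive or complete cell division. They were taken as every probe set annotated to a listed gene, and a probe set was kept where its log2 intensity reached 5 on 2 or more of the 18 arrays. Of the 34 genes, 33 were measured and kept, out of 10078 genes tested in all. The cyclin gene Ccnb1 had no probe set named for it in the annotation used and was not analysed here. The 33 genes had 69 probe sets, of which 53 were kept, and 16 genes had more than 1 kept probe set. Each gene is represented by its brightest kept probe set unless stated otherwise, and the levels of different genes are not compared, since probe sets differ in their signal.

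The cells were mouse embryonic fibroblasts, primary cultures grown from E12.5 to E14.5 fetuses after the head, the liver and blood clots had been taken away. Genotypes were wt, heterozygous and homozygous, and the design text describes the mutant as constitutively active. Its gene is given as TGFBR1, the type I receptor of TGFb, with a point mutation, in the title, but as TGFb1 in the design text, and it is named below simply as the mutant. Cells of each genotype were untreated (the design text says vehicle, with no duration) or received 5 ng/mL TGF-b1 for 4 h or for 24 h, which gave 9 groups of 2 arrays. Whether both arrays of a group come from separate cultures is not stated in the labels, and every p-value below therefore reflects array-to-array spread, which may be technical. The cultures were grown from whole trunk and limb tissue and can hold cells other than fibroblasts.

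Entry into mitosis is driven by Cdk1 bound to A- and B-type cyclins, together with the Polo and Aurora kinases. The chromosomes then attach to the spindle through kinetochores, the spindle checkpoint holds the anaphase-promoting complex until all are attached, and that complex with its activator Cdc20 has cyclin B and securin degraded so that separase can part the sister chromatids. Most of these genes are transcribed in late S, G2 and M phase, so their RNA in a culture follows the share of dividing cells, and TGFb is known to slow the division of many cell types.

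The promoters of such genes are known for 2 short elements, the cell cycle genes homology region (CHR, TTTGAA), contacted by the MuvB complex, and the CCAAT box, bound by NF-Y. They were searched on both strands, overlapping matches included, in RefSeq windows of 300 bases (GRCm38.p6, 250 before to 50 after the start of a gene). A window was found for 30 of the 34 listed genes (31 windows, Prc1 having 2), and not for Aurkb, Ccna2, Kif20a and Tpx2. TTTGAA occurred in 23 of the 31 windows (74.2%), against 17.9% of all 32851 windows. CCAAT occurred in 25 of the 31 (80.6%), against 37.4% of all, and at least 2 copies of CCAAT were present in 54.8% of the members' windows and 11.7% of all. Both elements were present in 67.7% of the members' windows and 6.95% of all. Strings of E2F sites (TTTGGCGC, TTTCCCGC, TTTGCCGC, TTTCGCGC), which are known for S phase genes, occurred in 1 of the 31 windows (3.23%, that of Cdk1) and in 2.26% of all. In the 39 windows found for 46 listed DNA replication genes, E2F strings occurred in 35.9% and TTTGAA in 10.3%. A match is a description of the letters and does not show that a protein binds there.

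Upstream stretches of 8 genes are printed, so that the letters can be set beside the values below. Cdc20, Ccnb2, Cdk1 and Ube2c were not called lower after 4 h with TGF-b1 in any genotype, while Espl1, Kif11, Top2a and Mki67 were called lower by then in at least 1. Each is from the GRCm38.p6 promoter table, 5′ to 3′ on the strand of the gene, and capitals mark TTTGAA or CCAAT on either strand (TTCAAA and ATTGG on the opposite one).
Cdc20, chr4:118437344-118437443, minus strand: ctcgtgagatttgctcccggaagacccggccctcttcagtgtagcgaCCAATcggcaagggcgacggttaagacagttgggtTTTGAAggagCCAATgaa
Ccnb2, chr9:70421555-70421654, minus strand: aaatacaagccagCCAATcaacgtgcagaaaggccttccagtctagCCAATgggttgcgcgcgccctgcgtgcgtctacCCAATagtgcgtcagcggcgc
Cdk1, chr10:69352913-69353012, minus strand: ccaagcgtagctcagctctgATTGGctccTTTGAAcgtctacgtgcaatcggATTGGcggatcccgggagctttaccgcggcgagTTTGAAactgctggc
Ube2c, chr2:164769829-164769928, plus strand: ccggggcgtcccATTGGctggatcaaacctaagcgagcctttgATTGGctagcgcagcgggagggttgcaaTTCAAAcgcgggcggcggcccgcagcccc
Espl1, chr15:102296193-102296292, plus strand: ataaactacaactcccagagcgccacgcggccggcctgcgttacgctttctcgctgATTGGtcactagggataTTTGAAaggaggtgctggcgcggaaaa
Kif11, chr19:37376282-37376381, plus strand: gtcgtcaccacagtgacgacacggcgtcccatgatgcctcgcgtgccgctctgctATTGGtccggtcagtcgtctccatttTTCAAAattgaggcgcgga
Top2a, chr11:99024200-99024299, minus strand: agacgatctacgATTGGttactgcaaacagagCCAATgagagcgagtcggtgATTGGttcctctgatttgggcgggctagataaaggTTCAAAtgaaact
Mki67, chr7:135716470-135716574, minus strand: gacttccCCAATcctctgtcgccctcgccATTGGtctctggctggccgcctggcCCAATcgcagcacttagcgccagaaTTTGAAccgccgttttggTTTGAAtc
All 8 stretches hold at least 1 CCAAT in either orientation, and all but that of Ccnb2 hold TTTGAA. Genes and stretches were picked by hand, so this describes only the letters printed and not the members. The stretches of Top2a and Mki67 lie 110 to 11 and 195 to 91 bases upstream of the start, the others 100 to 1. The full windows of Birc5, Mad2l1, Nuf2 and Nusap1 hold neither element. In the full Ccnb2 window TTTGAA lies 167 bases upstream of the start and again just inside the gene. Cdk1 and Mki67, with 4 h changes of opposite sign (below), each hold 2 copies of TTTGAA and several of CCAAT.

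Between the replicates of a group, the standard deviation over all genes (root mean square) reached 0.379 (untreated), 0.387 (4 h) and 0.321 log2 (24 h) for wt, and lay between 0.183 and 0.222 for the mutant pairs. Over the 33 mitosis genes it was 0.240, 0.248 and 0.147 in the wt pairs and 0.060 to 0.187 in the mutant pairs. All 12 fibroblast markers were measured, with Vim at 15.71 log2 or more on every array. The filter was passed by 0 of 3 erythroid markers and 1 of 6 endothelial markers. The endothelial marker that passed, Emcn, measured 8.24 to 9.67 log2 across the arrays, while Pecam1, Cdh5 and Kdr were at 2.25 or less. All 16 macrophage and blood markers on the array passed, and their mean level was 5.80 to 7.97 on the 6 wt arrays, 8.88 to 9.88 on the 6 heterozygous and 8.35 to 9.27 on the 6 homozygous arrays (summed intensity 2009 to 8823, 18448 to 30280 and 13083 to 20280). Muscle markers (7 of 8 kept) had a mean of 7.10 and 8.87 on untreated wt replicates 1 and 2, 8.57 and 7.59 on the wt 4 h arrays and 7.86 and 6.82 on the wt 24 h arrays, against 6.53 to 7.70 on all mutant arrays.

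After 24 h with TGF-b1 the mitosis genes were lower in all 3 genotypes. In wt cells 31 of 33 fell at an adjusted p under 0.05 (limma, Benjamini-Hochberg over 10078 genes), where 7.14% of all genes tested were called lower. In heterozygous cells 32 of 33 fell (4.12% of all genes), and in homozygous cells 32 of 33 (5.51%). None of the 33 was higher. The median change was -0.77, -0.79 and -0.97 log2 in wt, heterozygous and homozygous cells, against -0.06, 0.01 and -0.02 for all genes. For all 33 genes and in each genotype both 24 h arrays lay below both untreated arrays, an order seen in 27.2%, 25.9% and 35.3% of all genes. Falls over 2-fold numbered 5, 4 and 14. Several homozygous values lay just past that cutoff, such as Aurkb and Birc5 (each -1.004 log2) and Mki67 (-1.005). The share of all genes over 2-fold is not printed here, and no difference in response between genotypes was called (below). In RNA of whole cultures, fewer dividing cells and less mitotic RNA per cell cannot be told apart. Each genotype has 1 untreated group, with no stated duration, so TGF-b1 and time in culture cannot be told apart either.

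**Figure D1:**
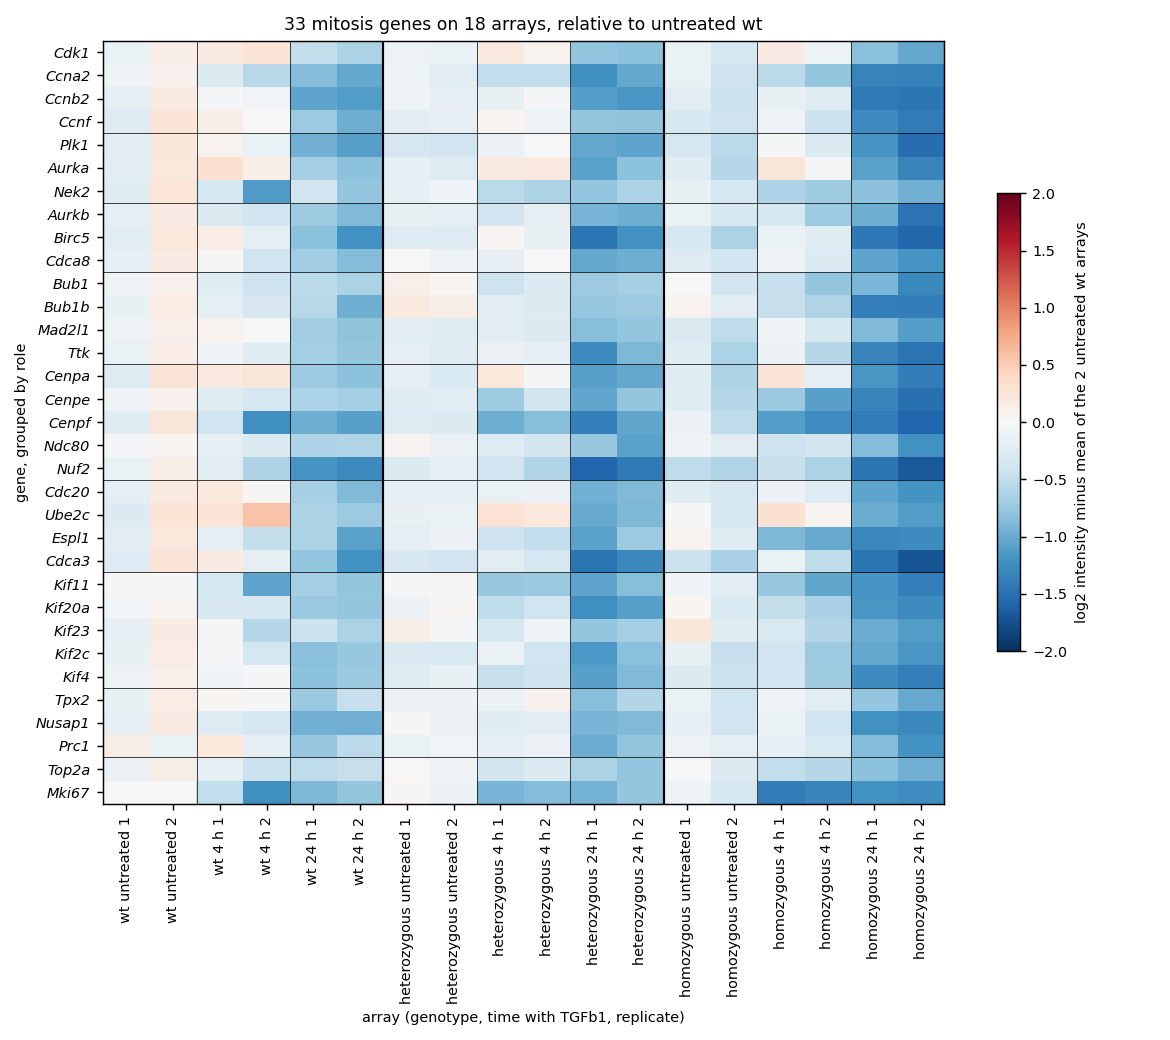
Each row is a mitosis gene, grouped by role, and each column an array. The colour gives the log2 intensity minus the mean of the 2 untreated wt arrays, and the 24 h columns of every genotype are blue in all 33 rows.

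The counts at 24 h rest on few arrays. Without untreated wt replicate 2 the wt count was 14, without wt 24 h replicate 1 it was 18 and without replicate 2 it was 15, and a fit to the 2 wt groups alone called 0 of 33. A fit with array weights called 10. The heterozygous count was 16 and 15 without untreated replicate 1 or 2 and 12 without 24 h replicate 1, and the homozygous count was 21 without untreated replicate 1. The median over these and all other settings tried stayed between -0.94 and -0.64 in wt, -0.86 and -0.74 in heterozygous and -1.06 and -0.85 in homozygous cells. Over the same comparisons the median change of the macrophage and blood markers was -0.46, -0.05 and -0.21, that of the muscle markers -0.68, -0.32 and -0.25, and that of the fibroblast markers 0.04, -0.10 and -0.16. With the mean of the macrophage markers as a covariate 33 of 33 mitosis genes were called lower in each genotype. The slope of that covariate comes only from differences between replicates. The part of other cell types in the fall was not tested, and the muscle markers were not used as a covariate.

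Cyclins and Cdk1 fell in every genotype at 24 h (4 of 4 measured). Ccnb2, a B-type cyclin that activates Cdk1, measured 10.55 and 10.92 on the untreated wt arrays, 10.72 and 10.69 at 4 h, and 9.68 and 9.62 at 24 h. On heterozygous arrays it measured 10.65 and 10.54, then 10.58 and 10.70, then 9.64 and 9.57, and on homozygous arrays 10.52 and 10.30, then 10.59 and 10.49, then 9.32 and 9.28. The untreated and 4 h values thus overlapped, and both 24 h values lay far below them. The 24 h change was -1.08 ± 0.12 log2 in wt cells (2.12-fold, adjusted p = 9.67e-05). It was -0.99 ± 0.12 in heterozygous cells (adjusted p = 0.000223) and -1.10 ± 0.12 in homozygous cells (adjusted p = 8.97e-05). Here and below, a change compares 2 arrays with 2, while its SE uses a variance pooled per gene over all 18 arrays. Replicate SDs over all genes were 0.321 to 0.387 log2 in wt groups and 0.183 to 0.222 in mutant groups. The pooled SE and the p-values can therefore understate the spread of wt arrays. Fits to only the untreated and 24 h groups of a genotype called 0 of 33 members in wt, 32 in heterozygous and 33 in homozygous cells.

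Ccna2, the cyclin of S phase and mitotic entry, measured 10.99 and 11.18 untreated, 10.81 and 10.52 at 4 h and 10.21 and 10.07 at 24 h in wt cells. It stepped down at both times, and the 24 h change was -0.95 in wt, -0.97 in heterozygous and -1.07 in homozygous cells. Ccnf, the cyclin of an SCF ubiquitin ligase, changed by -0.85, -0.61 and -0.97. Of the cyclins it had the call nearest the threshold, in heterozygous cells (adjusted p = 0.0471). Cdk1, the kinase of mitotic entry, measured 12.04 and 12.01 on untreated heterozygous arrays, 12.33 and 12.21 at 4 h and 11.36 and 11.31 at 24 h. Its fall was among the smaller ones, -0.56, -0.69 and -0.70 in the 3 genotypes.

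Among the mitotic kinases, Plk1, the Polo kinase of mitotic entry and spindle assembly, fell by 1.02 ± 0.16 log2 in wt, 0.68 ± 0.16 in heterozygous and 0.92 ± 0.16 in homozygous cells. Aurka, which matures centrosomes and spindle poles, changed by -0.75, -0.73 and -0.79. Nek2, a centrosome-splitting kinase, was not called at 24 h in any genotype (-0.57, -0.57 and -0.64, each ± 0.23, limma adjusted p = 0.134, 0.194 and 0.114). Its arrays still did not overlap: in homozygous cells it measured 8.87 and 8.67 untreated and 8.20 and 8.06 at 24 h. The chromosomal passenger complex corrects kinetochore attachments and directs cytokinesis, and its 3 listed genes fell in every genotype. Birc5 (survivin) changed by -1.02, -1.08 and -1.004, Aurkb, the kinase of the complex, by -0.80, -0.79 and -1.004, and Cdca8 (borealin) by -0.78, -0.95 and -0.80.

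The 4 genes of the spindle checkpoint fell in each genotype. Bub1b (BubR1) measured 8.36 and 8.67 untreated and 7.96 and 7.53 at 24 h in wt cells, 8.70 and 8.63 then 7.75 and 7.79 in heterozygous cells, and 8.58 and 8.30 then 7.15 and 7.13 in homozygous cells. The homozygous 24 h arrays were the lowest of the 18. Its change was -0.77 ± 0.16 in wt, -0.90 ± 0.16 in heterozygous and -1.30 ± 0.16 in homozygous cells (2.46-fold, adjusted p = 0.000233), the largest homozygous change of the 33 genes. Bub1, its partner kinase, changed by -0.59, -0.77 and -0.90, and Ttk (Mps1), the kinase that starts checkpoint signalling, by -0.73, -0.86 and -0.97. Mad2l1 (Mad2), which inhibits Cdc20, changed by -0.75, -0.60 and -0.60.

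All 5 centromere and kinetochore genes fell at 24 h in each genotype. Nuf2, a subunit of the Ndc80 complex that holds microtubules, measured 10.39 and 10.64 untreated, 10.29 and 9.90 at 4 h and 9.34 and 9.24 at 24 h in wt cells. Its 24 h change was the largest of the 33 in wt cells (-1.23 ± 0.14 log2, 2.34-fold, adjusted p = 0.000171) and in heterozygous cells (-1.27 ± 0.14, adjusted p = 0.000177), and was -1.01 in homozygous cells. Ndc80 itself changed by -0.61, -0.88 and -0.89. Cenpa, the centromeric histone H3 variant, changed by -0.77, -0.82 and -0.84. Cenpf changed by -1.03, -0.95 and -1.16 with the widest error of the 33 (± 0.24). Cenpe, a kinetochore motor, changed by -0.66, -0.67 and -1.01.

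The 4 genes of anaphase and its ubiquitin ligases fell in every genotype. Cdc20, the activator of the anaphase-promoting complex, measured 12.09 and 12.46 untreated and 11.62 and 11.39 at 24 h in wt cells, and its changes were -0.77, -0.74 and -0.84, each ± 0.12. Ube2c, the ubiquitin-conjugating enzyme of that complex, changed by -0.68, -0.81 and -0.89. Espl1 (separase), the protease that cuts cohesin, changed by -0.86, -0.74 and -1.19. Cdca3, a part of an SCF ligase that degrades Wee1, changed by -0.996, -1.01 and -1.06.

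Of the 5 kinesins, 4 fell in wt cells and all 5 in each mutant genotype. Kif23, the motor of the central spindle, was the exception (-0.53 ± 0.20 in wt cells, adjusted p = 0.107) and changed by -0.78 and -1.05 in heterozygous and homozygous cells. Kif20a, which carries the passenger complex to the midzone, measured 10.38 and 10.50 untreated and 9.70 and 9.66 at 24 h in wt cells, and 10.33 and 10.46 then 9.21 and 9.35 in heterozygous cells. Its change was -0.76, -1.11 and -1.07, and the difference between the heterozygous and the wt change (-0.35 ± 0.17) was not called (adjusted p = 0.999). Kif11 (Eg5), which pushes the spindle poles apart, changed by -0.73, -0.94 and -1.12, the depolymerase Kif2c by -0.80, -0.70 and -0.80, and the chromokinesin Kif4 by -0.78, -0.79 and -0.96.

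Among spindle and midzone proteins, Nusap1 changed by -0.96, -0.86 and -0.98, Prc1, which bundles midzone microtubules, by -0.64, -0.79 and -0.90, and Tpx2, the activator of Aurora A, by -0.60, -0.61 and -0.62. All 9 of these changes were called. Top2a, the topoisomerase that untangles chromosomes, had the smallest fall of the 33 genes in wt cells (-0.49 ± 0.12, adjusted p = 0.0181) and changed by -0.67 and -0.75 in the mutants. Mki67 (Ki-67), the coat of mitotic chromosomes and a standard marker of cycling cells, changed by -0.85, -0.81 and -1.01.

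**Figure D2:**
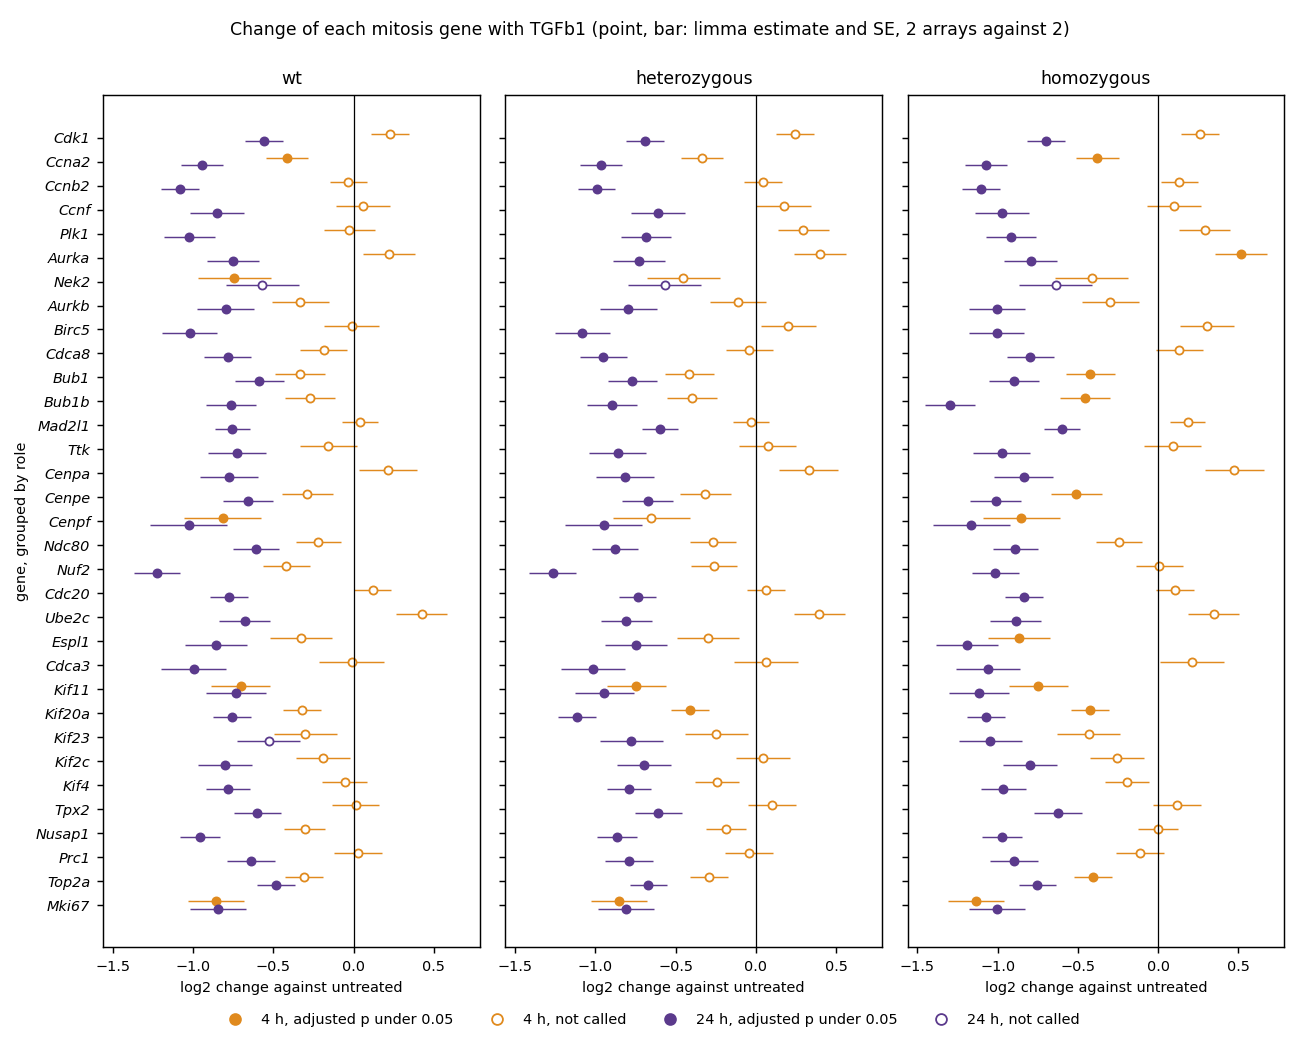
Each row is a mitosis gene. Points give the log2 change with TGF-b1 against untreated arrays of the same genotype at 4 h (orange) and 24 h (purple). A change compares 2 arrays with 2, and bars are 1 SE from the limma fit, with a variance pooled per gene over all 18 arrays. Filled points passed an adjusted p under 0.05. The 24 h points lie left of 0 in all 33 rows, while the 4 h points spread from -1.14 to 0.52.

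The probe sets of a gene agreed in direction at 24 h: all 53 kept probe sets were lower in each of the 3 genotypes. Their changes ran from -1.50 (the dim second probe set of Bub1 in wt cells) to -0.22 (the second probe set of Cenpe in wt cells). At 4 h they agreed less. Of the 20 further kept probe sets, 16 in wt, 14 in heterozygous and 18 in homozygous cells had the sign of the gene's brightest one. For Cenpe the brightest probe set changed by -0.29, -0.31 and -0.51 at 4 h and the second by -0.92, -1.90 and -1.49, a larger drop at 4 h than at 24 h (-0.22, -0.85 and -0.86), so the time course of Cenpe depends on the probe set. Averaged over its probe sets, the homozygous change of Cenpe between 4 h and 24 h was 0.063 instead of -0.50.

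At 4 h few mitosis genes were called, and their signs differed. Those lower were Mki67, Cenpf, Nek2, Kif11 and Ccna2 in wt cells (5 of 33, where 11.4% of all genes were called lower), Mki67, Kif11 and Kif20a in heterozygous cells (3 of 33, 13.2% of all genes), and 10 in homozygous cells (17.5% of all genes): Mki67, Espl1, Cenpf, Kif11, Cenpe, Bub1b, Kif20a, Bub1, Top2a and Ccna2. The wt and heterozygous shares of members called lower are near these backgrounds. Aurka in homozygous cells was the 1 member called higher, and 0 were called higher in wt and in heterozygous cells, where 9.49%, 15.7% and 20.1% of all genes were called higher in wt, heterozygous and homozygous cells. The number of members at an unadjusted p under 0.05 was 11, 10 and 15 of 33, and that of all 10078 genes was 3590, 4150 and 4720. The median 4 h changes were -0.19, -0.11 and -0.11. Over all settings tried the wt median ran from -0.33 (without untreated replicate 1) to -0.071 (without 4 h replicate 2), the heterozygous one from -0.16 to -0.087, and the homozygous one from -0.16 to about 0, the latter with the probe sets of a gene averaged.

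Mki67 and Kif11 were lower at 4 h in all 3 genotypes. Mki67 measured 11.32 and 11.33 untreated, 10.84 and 10.10 at 4 h and 10.43 and 10.53 at 24 h in wt cells, 11.34 and 11.21, 10.39 and 10.46, and 10.38 and 10.55 in heterozygous cells, and 11.22 and 11, 9.94 and 10.01, and 10.13 and 10.09 in homozygous cells. Its 4 h and 24 h levels lay close together, with differences of 0.01, 0.04 and 0.13 (each ± 0.17) between 24 h and 4 h. The 4 h change was -0.86 ± 0.17 in wt (adjusted p = 0.00521), -0.85 ± 0.17 in heterozygous (adjusted p = 0.00342) and -1.14 ± 0.17 in homozygous cells (adjusted p = 0.000424). Both mutant changes of Mki67 passed under every setting tried, and the wt change passed under all but array weights and the fit to the wt groups alone. Kif11 measured 9.60 and 9.67 untreated, 8.89 and 8.90 at 4 h and 8.59 and 8.80 at 24 h in heterozygous cells. The 4 h changes of Kif11 were -0.70, -0.75 and -0.75, each ± 0.18, and those of its other kept probe sets were negative in all 3 genotypes as well.

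Cenpf measured 8.84 and 9.32 untreated, 8.68 and 7.85 at 4 h and 8.11 and 8.0 at 24 h in wt cells, so the wt 4 h pair differed widely. Its 4 h value was -0.81 in wt (adjusted p = 0.0306), -0.65 in heterozygous (adjusted p = 0.0585) and -0.85 in homozygous cells (adjusted p = 0.0148). Nek2 shows the same wide pair, 8.67 and 7.88 at 4 h against 8.77 and 9.26 untreated. Its change was -0.74 ± 0.23 in wt cells, with -0.45 and -0.41 in the mutants, which were not called. Espl1 measured 8.22 and 7.90 untreated, 7.25 and 7.14 at 4 h and 6.86 and 6.88 at 24 h in homozygous cells, a change of -0.87 ± 0.19 at 4 h (adjusted p = 0.00409), which passed under every setting tried. In wt and heterozygous cells the values of Espl1 were -0.33 and -0.30, not called, and the difference between the homozygous and the wt change (-0.54 ± 0.27) was not called either (adjusted p = 0.618).

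Other members had higher mean levels at 4 h in each genotype and then fell. Ube2c measured 11.60 and 12.14 untreated, 12.15 and 12.45 at 4 h and 11.24 and 11.15 at 24 h in wt cells, 11.72 and 11.74, 12.16 and 12.09, and 10.87 and 10.98 in heterozygous cells, and 11.85 and 11.56, 12.17 and 11.93, and 10.88 and 10.75 in homozygous cells. Both 4 h arrays lay above both untreated arrays in each genotype, though by little in wt and homozygous cells. Of all genes 19.9%, 37.8% and 42.5% had that order in wt, heterozygous and homozygous cells. The 4 h change of Ube2c, 0.43, 0.40 and 0.35 (± 0.16), did not pass (limma adjusted p = 0.0754, 0.0792 and 0.106). Aurka measured 9.87 and 9.77 untreated, 10.21 and 10.22 at 4 h and 8.97 and 9.21 at 24 h in heterozygous cells, and 9.79 and 9.47, 10.28 and 10.01, and 8.97 and 8.70 in homozygous cells. Its 4 h change was 0.22 in wt (adjusted p = 0.362), 0.40 in heterozygous (adjusted p = 0.0837) and 0.52 ± 0.16 in homozygous cells (adjusted p = 0.0251). Without untreated homozygous replicate 2, or without homozygous 4 h replicate 1, the last was not called.

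The 4 h estimates of Cenpa were 0.22, 0.33 and 0.47 and those of Cdk1 were 0.23, 0.24 and 0.26. None of the 6 was called. Both 4 h arrays of Cdk1 lay above both untreated arrays in each genotype. In wt, heterozygous and homozygous cells that order held for 2, 9 and 6 of the 33 members. It held for 19.9%, 37.8% and 42.5% of all genes. The reverse order, both 4 h arrays below both untreated arrays, held for 14, 16 and 15 members and for 25.7%, 32.9% and 37.3% of all genes. By the brightest probe set, 16 members had a negative 4 h change in each of the 3 genotypes and 10 had mixed signs. A positive one in each was seen in 7 (Cdk1, Ccnf, Aurka, Cenpa, Cdc20, Ube2c and Tpx2). Some of these signs rest on values near 0, such as Tpx2 in wt (0.012) and Nusap1 in homozygous cells (-3.8e-05). The second kept probe set was negative for Ccnf in wt and heterozygous cells (-0.33 and -0.12) and for Tpx2 in wt cells (-0.15). That of Bub1, a negative member, was positive in homozygous cells (0.13). The 4 h changes of the 33 genes had Pearson r = 0.92 between wt and heterozygous, 0.86 between wt and homozygous and 0.92 between heterozygous and homozygous cells. These r describe 33 genes, which are not independent replicates and were measured on the same arrays, although no array is shared between 2 genotypes.

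The 4 h counts also moved with single arrays. The wt count of 5 became 3 without untreated replicate 2, 8 without 4 h replicate 1 and 1 without 4 h replicate 2, and a fit to the wt groups alone called 0. The heterozygous count of 3 became 1 without untreated replicate 2, and 5 or 6 without any one of the untreated or 4 h wt arrays. The homozygous count of 11 became 4 without untreated replicate 1 or without 4 h replicate 2 and 7 without 4 h replicate 1. Over the same comparisons the median change of the 5 kept epithelial markers was 0.83, 1.10 and 1.05 and that of the fibroblast markers -0.19, -0.24 and -0.36, and their part in the members' values was not tested.

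**Figure D3:**
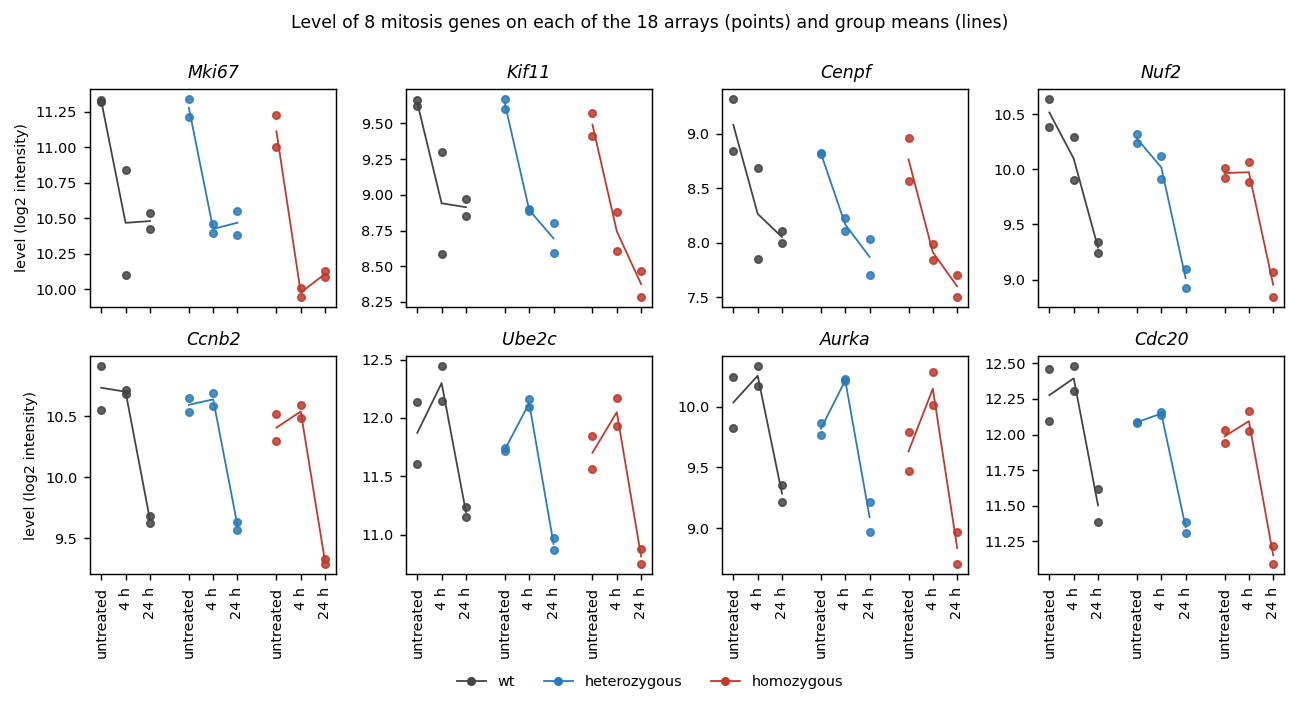
Log2 intensity (vertical axis) of 8 mitosis genes on each array, by genotype and time. Points are arrays and lines join the group means. Mki67, Kif11 and Cenpf are lower by 4 h, Nuf2 and Ccnb2 fall mostly after 4 h, and Ube2c, Aurka and Cdc20 have their highest group means at 4 h.

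Between 4 h and 24 h, 23 of 33 members fell in wt cells (19.2% of all genes were called lower), 25 in heterozygous cells (17.3%) and 28 in homozygous cells (22%), and none was called higher. The medians were -0.61, -0.70 and -0.78. These comparisons share their arrays with those above and are given for the values themselves. In wt cells the largest falls were those of Ube2c (-1.10 ± 0.16), Ccnb2 (-1.05 ± 0.12) and Birc5 (-1.01 ± 0.17). The largest falls of homozygous cells were those of Cenpa, Aurka and Birc5 (each -1.31). Mki67, Nek2, Kif11, Cenpf and Espl1 did not pass between 4 h and 24 h in any genotype. A fit to the 2 wt groups alone again called 0 in wt cells.

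The 4 h values varied with the genomic span of the genes. Ube2c spans 2.97 kb, Cdc20 4.44 kb, Cenpa 7.96 kb and Aurka 14.7 kb, while Mki67 spans 26.7 kb, Kif11 45.5 kb and Cenpf 47.5 kb (RefSeq gene models). Over the 33 genes the correlation of the 4 h change with log10 of the span was r = -0.42 in wt, -0.48 in heterozygous and -0.47 in homozygous cells, and at 24 h it was 0.16, 0.08 and -0.20. The other mitosis genes gave -0.42, -0.50 and -0.49 at 4 h over 95 genes, and all genes with a span gave -0.24, -0.26 and -0.31 over 10065. The sign of the correlation at 4 h was thus shared by all genes. Kif4, the longest member (101 kb), had values of -0.06, -0.24 and -0.20 and goes against this order, as do Nek2 (11.6 kb), Kif20a (8.65 kb) and Ccna2 (8.17 kb), which were called lower in at least 1 genotype. Span was not the only trait that varied with the 4 h change. Over the 33 genes the Spearman rho with the mean signal of the probe set was 0.36, 0.33 and 0.45, and with span -0.40, -0.45 and -0.53. Over all genes rho with the mean signal was 0.09, 0.06 and 0.05. These are correlations across genes of the same arrays, given as a description.

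**Figure D4:**
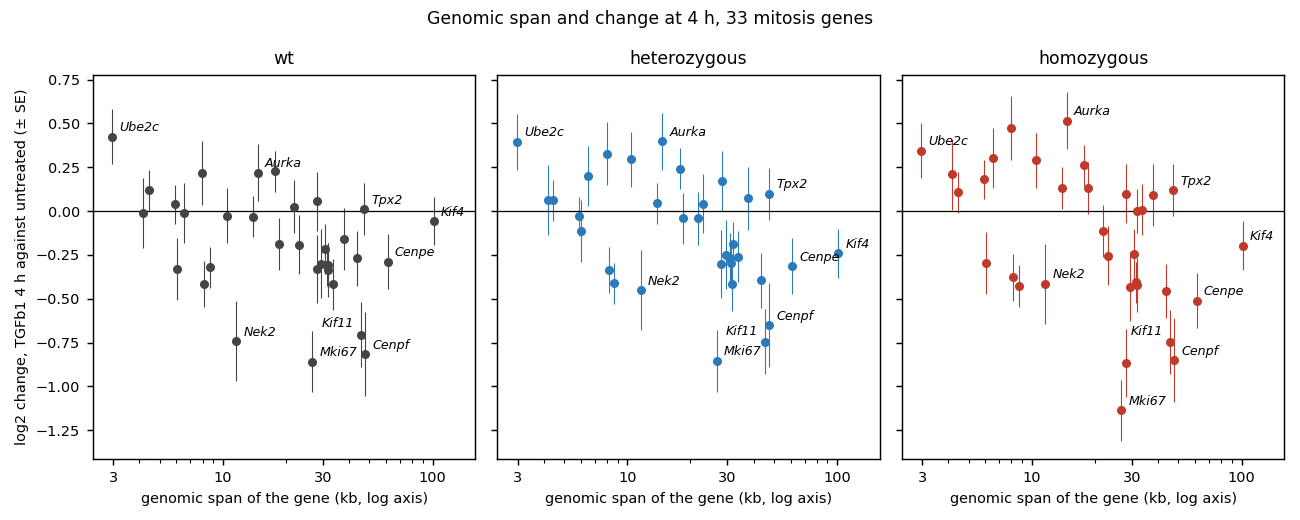
Genomic span of each of the 33 mitosis genes (horizontal, kb, log axis) against its log2 change at 4 h (vertical, with bars of 1 SE) in the 3 genotypes. The short genes Ube2c, Cdc20 and Cenpa lie above 0 in each genotype, while Aurkb, Ccna2 and Kif20a, also short, lie below 0 in each. Mki67, Kif11 and Cenpf are among the lowest. Pearson r was between -0.48 and -0.42, and Kif4, Tpx2 and Nek2 stand off the trend.

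No mitosis gene was called between genotypes at an adjusted p under 0.05 in the limma fit without a replicate block. With a block chosen after seeing the data some were called, as given in the closing section. In the fit without a block, 0 of 33 were called in untreated cells between heterozygous and wt, homozygous and wt, or homozygous and heterozygous. Of all genes 0.149%, 0.615% and 0% were called lower in these comparisons. At 24 h 0 were called between heterozygous and wt (0.169% of all genes) and between homozygous and wt (0.189% of all genes). At an unadjusted p under 0.05 in limma the members numbered 1, 13 and 0 untreated and 1 and 26 at 24 h, in the same order. That threshold is looser than a call, so these counts cannot be set beside the shares of all genes called. The share of all genes at that threshold is not printed here, so no difference between genotypes is read from these counts. Without untreated wt replicate 1, 10 members were called between untreated homozygous and wt cells, and the calls among all 10078 genes went from 178 to 960. On that array 31 of the 33 genes were lower than on untreated wt replicate 2, the other array of the pair.

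Without a covariate, the estimates between homozygous and wt cells had 1 sign. All 33 estimates were negative in untreated cells (median -0.27, from -0.55 for Nuf2 to -0.01 for Kif23), and in 19 genes both homozygous arrays lay below both wt arrays, an order seen in 24.6% of all genes. At 24 h all 33 were negative again (median -0.42, from -0.76 to -0.24), and in 33 of 33 genes both homozygous arrays lay below both wt arrays, against 24.2% of all genes. Cenpe had the lowest estimate at 24 h: it measured 9.27 and 9.21 in wt cells, 8.86 and 9.13 in heterozygous and 8.57 and 8.40 in homozygous cells, a difference of -0.76 ± 0.16 between homozygous and wt cells (95% interval -1.10 to -0.42, adjusted p = 0.0609). Ttk followed (-0.68 ± 0.18, adjusted p = 0.123) and then Bub1b (-0.61 ± 0.16, adjusted p = 0.121). Mad2l1 was nearest to 0 (-0.24, 95% interval -0.48 to 0.00).

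Heterozygous against wt cells had medians of -0.16 untreated and -0.20 at 24 h, with 30 of 33 estimates negative each time, and these directions turned with the marker covariate given below. The median level of the 33 genes was 10.16 and 10.36 on the untreated wt arrays, 10.13 and 10.01 on the heterozygous and 10.05 and 9.86 on the homozygous ones. At 24 h it was 9.39 and 9.30, then 9.19 and 9.33, then 9.20 and 8.87. The wt and heterozygous values overlap at 24 h. The macrophage and blood markers moved with genotype too, with means of 7.47 and 6.33 on untreated wt arrays, 9.73 and 9.28 on heterozygous and 8.85 and 9.01 on homozygous ones. With the mean of these markers as a covariate, the median difference from wt went from -0.27 to 0.0028 in untreated homozygous cells and from -0.42 to -0.096 in homozygous cells at 24 h. In heterozygous cells it turned, to 0.22 untreated and 0.26 at 24 h, and 1 member was called higher than in wt cells at each time. The marker mean differs between wt and mutant arrays without overlap, so genotype and these markers cannot be told apart here. Beside 1 mean per group, the slope of the covariate comes only from differences between replicates and is carried over that gap. In each wt pair the muscle markers differed in the opposite direction to the macrophage and blood markers, so the slope is not particular to the latter. Leaving out single arrays moved the medians too: untreated homozygous against wt was -0.44 without untreated wt replicate 1, and untreated heterozygous against wt was -0.32 without it.

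No difference in the size of the response was called between genotypes. The interaction of genotype and treatment was called for 0 of 33 members in limma in each of the 4 tests (heterozygous or homozygous minus wt response, at 4 h or 24 h) and for 0 of 10078 genes. At an unadjusted p under 0.05 there were 0, 0, 0 and 1 members. The 1 was Bub1b in homozygous cells at 24 h (-0.53 ± 0.22, 95% interval -1.01 to -0.06, adjusted p = 0.856). The median interaction was 0.08 and 0.03 at 4 h and -0.02 and -0.14 at 24 h. The median SE of 0.22 is wide beside these estimates: for Kif23 the 24 h interaction of homozygous cells was -0.52, with a 95% interval of -1.12 to 0.08.

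Other genes of mitosis came from 5 lists with 106 genes, of which 95 were tested. The genes named below from these lists and from the DNA replication list were those called with the largest change in wt cells at 24 h. That choice favours larger values in wt cells than in the mutants. At 24 h 43 were called lower in wt, 43 in heterozygous and 48 in homozygous cells and 0 were called higher, with medians of -0.58, -0.64 and -0.70. Of all genes 7.14%, 4.12% and 5.51% were called lower and 4.51%, 2.95% and 3.1% higher. Among kinetochore, centromere and checkpoint genes 15, 13 and 13 of 31 fell: Cenpn, a reader of the centromeric nucleosome, changed by -1.06, -1.21 and -1.02. The values of Cenpu were -1.03, -0.43 and -0.63 and those of Spc24, a subunit of the Ndc80 complex, -0.99, -0.62 and -0.40, called in wt cells and not in the mutants, and the difference between genotypes was not called for any of the 10078 genes. Among spindle, kinesin and centrosome genes 11, 14 and 13 of 23 fell. Aspm, a spindle pole protein, changed by -1.28, -1.002 and -1.35, Cep55, an organiser of abscission, by -0.88, -0.82 and -0.77, and Dlgap5 by -0.85, -0.78 and -0.99.

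Cytokinesis genes fell in 4, 5 and 5 of 6 cases. Anln (anillin), the scaffold of the contractile ring, changed by -1.06, -1.08 and -1.10, each ± 0.11 (adjusted p = 6.73e-05, 7.25e-05 and 5.61e-05), Shcbp1 by -0.96, -0.83 and -0.90, and Ect2, which activates RhoA at the equator, by -0.72, -0.79 and -0.71. Ect2 was already lower at 4 h (-0.62, -0.999 and -0.68, called in each genotype). Condensin, cohesin and anaphase genes fell in 9, 9 and 10 of 20 cases. Ncaph, a condensin subunit, changed by -1.03, -0.74 and -0.59, and Pttg1 (securin) by -0.85, -0.84 and -0.93. The values of Cdca5 (sororin), which protects cohesion, were -0.89, -0.71 and -0.61, and only that of wt cells was called.

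Genes of mitotic transcription and entry fell in 4, 2 and 7 of 15 cases, with medians of -0.22, -0.38 and -0.30. Cdc25c, the phosphatase that activates Cdk1, had values of -0.94, -0.45 and -1.17, where the heterozygous value was not called. Pbk changed by -0.87, -0.62 and -0.62 and the kinase Melk by -0.84, -0.75 and -1.05. At 4 h the 95 genes gave 2 higher and 13 lower in wt, 2 and 17 in heterozygous and 7 and 23 in homozygous cells, where 9.49%, 15.7% and 20.1% of all genes were called higher and 11.4%, 13.2% and 17.5% lower.

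DNA replication genes act in S phase. Of 40 tested at 24 h, 15 fell in wt, 6 in heterozygous and 7 in homozygous cells and 0 were called higher, with medians of -0.45, -0.36 and -0.35. The shares of all genes were 7.14%, 4.12% and 5.51% lower and 4.51%, 2.95% and 3.1% higher. Tk1, the thymidine kinase of the S phase nucleotide supply, changed by -1.62 ± 0.22, -1.45 and -1.53 (adjusted p = 0.000522, 0.00152 and 0.000907). Gins2, a subunit of the replicative helicase, changed by -1.03, -0.69 and -0.79, all called. At 4 h it was 0.37 in wt cells (adjusted p = 0.179) and was called higher in heterozygous and homozygous cells (0.71 and 0.73). Mcm10, which activates that helicase, had values of -0.84, -0.77 and -0.65 at 24 h, and its homozygous value was not called (adjusted p = 0.053).

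**Figure D5:**
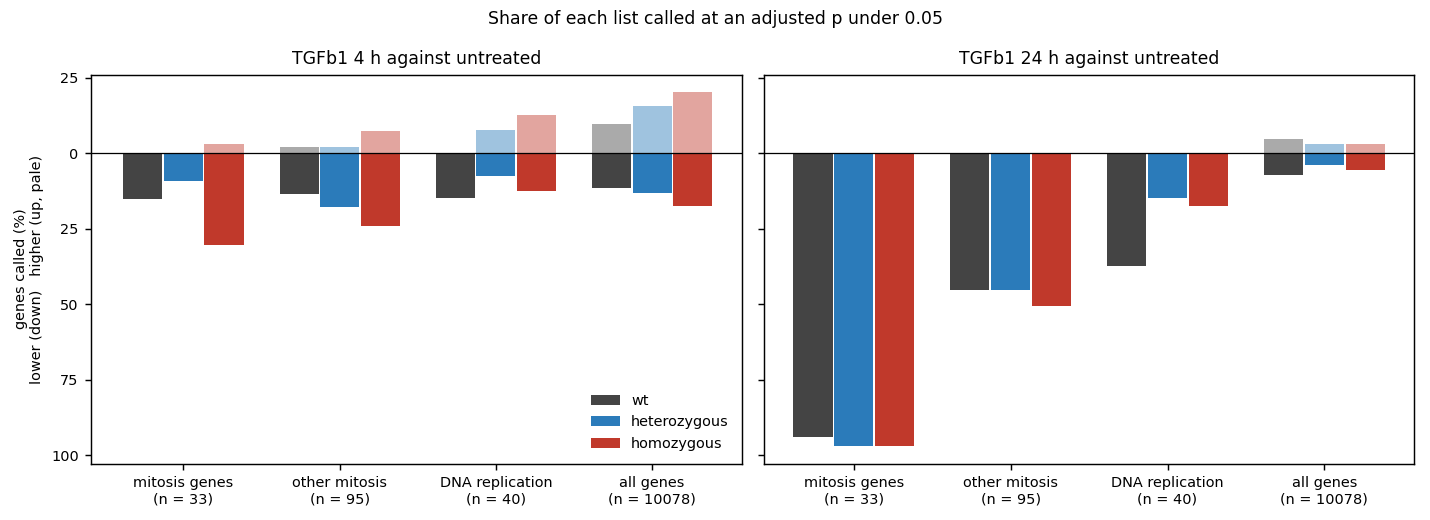
Share of genes (vertical axis, %) called at an adjusted p under 0.05, with lower drawn down and higher drawn up in pale, for the 33 mitosis genes, 95 other mitosis genes, 40 DNA replication genes and all 10078 genes, at 4 h and at 24 h. Bars are genotypes. At 24 h 31, 32 and 32 of the 33 mitosis genes lie in the lower bars, while at 4 h the lower bars of mitosis genes are near those of all genes in wt and heterozygous cells, and their higher bars are at 0.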

How the data were processed

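RNA of 18 mouse embryonic fibroblast samples was hybridised to 1-colour Affymetrix arrays, 9 groups of 2. The deposited values are linear intensities of 45101 probe sets that the authors made with GCRMA, named without a version in the submitters' processing notes. GCRMA as a method corrects background by probe sequence and normalizes arrays to one another, which can hide a shift shared by all genes. Depth does not apply, and the number of arrays limits the precision.

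Intensities were turned into log2, probe sets reaching log2 5 on 2 or more arrays and named for 1 gene were kept, and the brightest one stood for each of 10078 genes. Models were fitted with limma 3.58.1 in R 4.3.3 (lmFit, eBayes with an intensity trend) over all 18 arrays with 1 mean per group and no block, giving 9 residual degrees of freedom. All p-values printed are limma's, 2-sided, and adjusted p-values are Benjamini-Hochberg over 10078 genes within each of 18 comparisons. Called means an adjusted p under 0.05. Fits were tested on simulated data. The 4 h and 24 h comparisons of a genotype share the untreated arrays. No label or pairing check settled that replicate numbers pair arrays, since the differences between replicates had r from 0.38 to 0.61 among mutant groups of 1 genotype and -0.49 and -0.66 between untreated wt arrays and the other wt times.

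All 34 listed genes could be named, and from each list of other genes at most 3, those called with the largest change at 24 h in wt cells. The members and lists were chosen with earlier results of these data known. Alternatives covered the filter, the probe set rule, normalization, log scale, trend, weights, arrays fitted, block, marker covariate and leaving out each array. Promoter windows and gene spans come from RefSeq (GRCm38.p6).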

Additional observations from a re-analysis of the deposited data

How the results depend on the processing

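The counts of mitosis genes called (of 33) rest on 2 arrays a group. For wt 4 h against untreated, 5 called became 2 with no filter on dim probe sets, 3 with probe sets averaged per gene, and 0 with array weights and with only the groups compared. For heterozygous 4 h, 3 became 5 with the mean of probe sets, 7 with quantile normalization, 7 with array weights, 11 with only the groups compared and 9 with the macrophage marker mean as a covariate. For homozygous 4 h, 11 became 7 with the mean of probe sets and 18 with array weights. For wt 24 h, 31 became 10 with array weights and 0 with only the groups compared, and for wt 24 h against 4 h, 23 became 15 and 0. Between genotypes, where 0 were called, the covariate gave 1 for heterozygous against wt untreated and 1 at 24 h, and at 24 h homozygous against wt gave 1 with quantile normalization and 2 with array weights. The causes were not tested.

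A replicate block within genotype called 8 at 4 h in wt and 5 in heterozygous cells, and a replicate block over all groups moved no count by over 1.5 times (24 h: 31, 31 and 32). The labels do not say that the numbers pair arrays, while the replicate differences within a genotype hint at it in the mutants (r from 0.38 to 0.61) and not between the untreated and treated wt arrays (-0.49 and -0.66). With the untreated wt numbers crossed, a setting chosen after seeing the data, the block within genotype called 12, 14 and 17 at 4 h, 4 and 7 untreated (heterozygous and homozygous against wt), and 4 and 9 at 24 h.

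Leaving out 1 array in turn gave, for wt, heterozygous and homozygous cells, 1 to 8, 1 to 6 and 4 to 13 at 4 h, 14 to 32, 12 to 32 and 21 to 33 at 24 h, and 16 to 25, 20 to 26 and 21 to 29 for 24 h against 4 h. Homozygous against wt gave 0 to 10 untreated and 0 to 1 at 24 h, and the 7 other comparisons gave 0 throughout. An arm left with 1 array takes its spread from the other groups. Of 6265 alternative values of 190 gene results, 5866 kept their direction and call, 398 lost the call and 1 turned: Cenpe between 4 h and 24 h in homozygous cells was 0.063 with the mean of its probe sets.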
